A study of Homo sapiens with 6 samples.

Results

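Contractile actin cytoskeleton genes were followed in PC9 cells, an established human lung adenocarcinoma line that carries an activating EGFR mutation. The set was given by symbol: TAGLN, TAGLN2, TPM1, TPM2, TPM4, MYL9, ACTN1, ACTN4, VCL and FLNA. Of these 10 genes, 9 have a row in the count tables, which hold 26195 genes over all libraries. FLNA was not analysed here.

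Messenger RNA of single cells was captured by Drop-seq, in which each molecule carries a unique molecular identifier (UMI), and each of 6 conditions was measured in 1 library. In 3 libraries, cells were transduced with lentiviruses carrying either KDM5A shRNA, or shRNA to both KDM5A and KDM5B, or a KDM5A cDNA, and then received 2 µM of the EGFR inhibitor erlotinib for 1 day. The remaining erlotinib library came from cells that were not transduced and received 6.25 µM CPI-455, which blocks the histone demethylases of the KDM5 family, for 4 days together with 2 µM erlotinib. Its labels state 1 day of erlotinib but also place its start on the day that followed seeding. The shRNAs were carried in pLVTHM and the cDNA in pLenti. The drug-free libraries were cells transduced with scrambled shRNA and untreated cells. Erlotinib was started 4 days after transduction with KDM5A shRNA, 5 days after it in the library labelled KDM5A and KDM5B shRNA and 6 days after it for KDM5A cDNA, so this interval and the construct cannot be told apart. Transduced cells were grown in 10% serum and the others in 5%. No library held scrambled cells with erlotinib or any KDM5 manipulation without it, so erlotinib and the KDM5 manipulations cannot be told apart in any comparison with a drug-free library.

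Actin filaments become contractile when non-muscle myosin slides them against each other in stress fibres. Tropomyosins (TPM1, TPM2, TPM4) coil along the filament and set which myosins bind it. MYL9 is a regulatory light chain of that myosin, and its phosphorylation switches contraction on. Alpha-actinins (ACTN1, ACTN4) cross-link filaments, vinculin (VCL) ties them to integrin and cadherin adhesions, and transgelins (TAGLN, TAGLN2) bind and bundle them. Many of these genes are textbook targets of serum response factor (SRF), which reads the CArG box with its actin-sensing coactivators, and of the TEAD factors, which work with YAP and TAZ. In epithelial tumour lines, higher levels of this group commonly go with cell spreading and with epithelial-mesenchymal transition.

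RefSeq promoter windows on GRCh38.p14, 250 bases before to 50 after each annotated start, were read for 8 of the 10 genes and numbered 17, since some genes have several starts. TAGLN and MYL9 are the others. The 4 windows shown are the start of TPM4 and of ACTN1 that holds a CArG box, the VCL start with a TEAD motif, and the only TPM1 start, which has neither; motifs are in capitals.
TPM4, chr19:16067288-16067587, plus strand: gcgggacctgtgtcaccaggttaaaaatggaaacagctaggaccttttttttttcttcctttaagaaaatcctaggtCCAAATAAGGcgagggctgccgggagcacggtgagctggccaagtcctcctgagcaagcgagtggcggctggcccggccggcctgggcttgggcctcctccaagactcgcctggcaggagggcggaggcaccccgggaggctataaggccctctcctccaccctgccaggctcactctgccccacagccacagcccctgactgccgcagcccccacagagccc
ACTN1, chr14:68977517-68977816, minus strand: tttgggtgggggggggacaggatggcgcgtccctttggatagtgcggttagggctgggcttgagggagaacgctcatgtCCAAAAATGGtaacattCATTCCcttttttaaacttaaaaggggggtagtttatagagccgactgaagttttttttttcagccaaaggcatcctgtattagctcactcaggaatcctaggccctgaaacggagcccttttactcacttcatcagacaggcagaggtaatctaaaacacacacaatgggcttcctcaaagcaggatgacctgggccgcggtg
VCL, chr10:73997866-73998165, plus strand: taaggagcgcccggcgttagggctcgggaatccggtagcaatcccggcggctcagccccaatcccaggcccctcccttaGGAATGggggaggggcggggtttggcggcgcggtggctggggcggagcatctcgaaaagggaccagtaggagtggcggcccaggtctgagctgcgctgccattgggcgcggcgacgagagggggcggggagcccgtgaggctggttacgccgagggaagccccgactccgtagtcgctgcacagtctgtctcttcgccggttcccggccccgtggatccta
TPM1, chr15:63048239-63048538, plus strand: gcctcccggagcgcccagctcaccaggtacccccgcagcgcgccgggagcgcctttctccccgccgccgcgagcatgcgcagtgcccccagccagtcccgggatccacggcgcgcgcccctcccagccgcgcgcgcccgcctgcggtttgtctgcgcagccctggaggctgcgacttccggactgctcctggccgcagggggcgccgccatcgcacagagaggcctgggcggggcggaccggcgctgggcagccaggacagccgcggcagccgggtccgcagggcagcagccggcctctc
The TPM4 window holds a CArG box that begins 173 bases before the start. The ACTN1 window holds one 171 bases before it and, 154 bases before it, the TEAD motif GGAATG read on the opposite strand. The VCL window holds the TEAD motif 171 bases before its start, and the TPM1 window holds none of the motifs searched. On either strand, a CArG box stood in 1.29% of 35116 RefSeq promoter windows of the same length, GGAATG in 14.0% and the AP-1 motif TGANTCA in 7.71%. Over all windows of the set, 3 of 17 held a CArG box (1 each of TPM4, ACTN1 and FLNA), 2 the TEAD motif and 3 the AP-1 motif. A match is a description of letters and was not tied to binding.

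Barcodes of 500 UMIs or more, of which mitochondrial transcripts made up no more than 20%, were kept as cells. This left 374 cells with KDM5A shRNA, 152 in the library labelled KDM5A and KDM5B shRNA, 131 with KDM5A cDNA, 202 with CPI-455, 263 scrambled and 1166 untreated cells. Their summed UMIs ranged between 590091 and 1596385 in the erlotinib libraries, against 1294422 in scrambled and 3956647 in untreated cells, and a level is given in CPM, the UMIs of a gene per 1000000 UMIs of that sum. The library labelled KDM5A and KDM5B shRNA did not have less KDM5B than scrambled cells: its transcript stood at 138 CPM there, against 46.4. KDM5B was also at 151 CPM with KDM5A shRNA, 94.9 with KDM5A cDNA and 102 with CPI-455, against 60.4 in untreated cells. With no scrambled cells under erlotinib, the effect of the KDM5B shRNA on its transcript cannot be judged from these levels. KDM5A stood at 56.4 CPM with KDM5A shRNA, 41.3 in the library labelled KDM5A and KDM5B shRNA and 164 for KDM5A cDNA, against 81.9 in scrambled cells. The mitochondrial share was 7.04% to 9.18% in the erlotinib libraries, against 5.03% in scrambled and 3.98% in untreated cells, and its part in the results below was not tested. Epithelial markers were all present, at 8080 to 11787 CPM in sum with erlotinib, against 7877 to 8699.6 without. Of 7 fibroblast markers, 3 had a row, and their sum was 0 to 8.27 CPM with erlotinib, against 1.55 to 4.30 without. Of 6 smooth muscle markers, 5 had a row, and their sum was 10.2 to 26.3 CPM with erlotinib, against 14.7 to 36.9 without; the defining MYH11 had at most 3 UMIs in any library. Immune markers summed to 15.3 to 40.1 CPM with erlotinib, against 3.09 to 8.34 without, nearly all of it from CD74. Endothelial markers summed to 3.43 to 12.4 CPM with erlotinib, against 2.27 to 4.64 without.

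The tropomyosins and the myosin light chain were higher in all 4 erlotinib libraries than in both drug-free libraries, whereas ACTN4 and TAGLN2 overlapped between them. TPM1, TPM2, TPM4 and MYL9 rose, 4 of the 9 measured genes, in edgeR's quasi-likelihood test of the 4 erlotinib libraries against the 2 drug-free libraries at an adjusted p under 0.05. The same test called 10.0% of 10445 genes higher. It called 0 of the 9 lower, against 13.5% of all genes; at an unadjusted p under 0.05, 6 were higher and 0 lower, and DESeq2 and limma-voom also called 0 lower. The median log2 fold was 1.55 over the 9 genes and 0.01 over all genes tested. The members were chosen with earlier results of these data known. The shares here and in the pairs below are therefore a description of the set. The 4 libraries are not replicates of a condition, so the spread in this test includes their KDM5 manipulations. The drug-free libraries are not replicates either, and serum and transduction differ within both groups. Without the scrambled library 0 of the 9 passed, without the untreated library 0, and without the library labelled KDM5A and KDM5B shRNA 2.

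**Figure D1:**
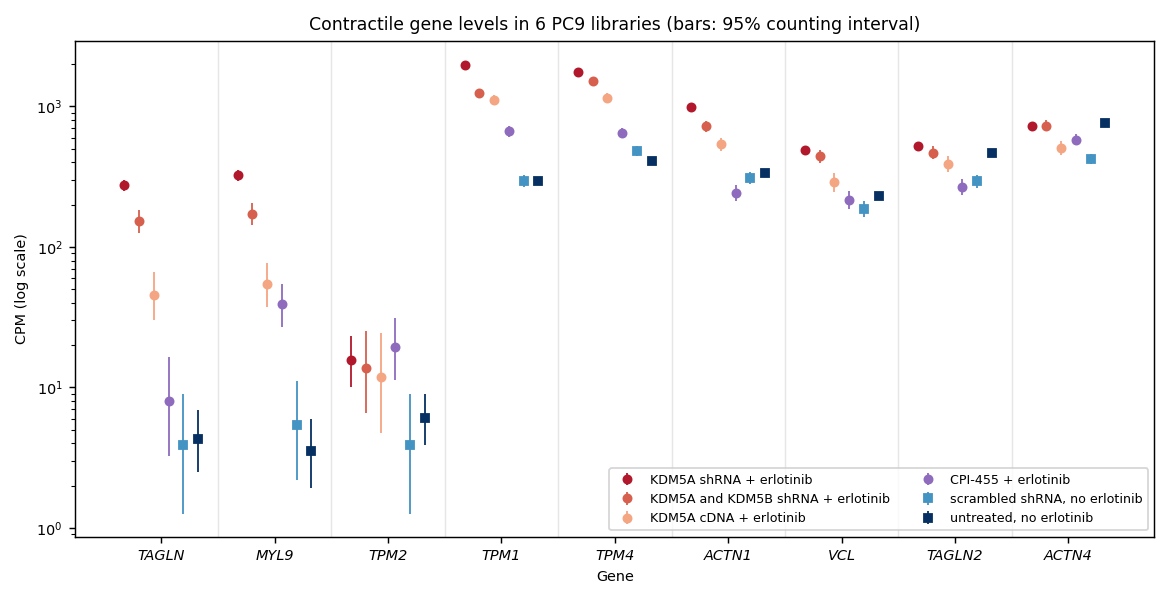
CPM on a log axis for the 9 measured genes in each library, erlotinib libraries left of the drug-free ones, with bars for the 95% counting interval. TAGLN and MYL9 spread over 8.01 to 274 and 38.9 to 324 CPM in the erlotinib libraries, whereas ACTN4 overlaps between the groups.

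Among the tropomyosins, TPM1 was at 1959 CPM with KDM5A shRNA, 1254 in the library labelled KDM5A and KDM5B shRNA, 1112 with KDM5A cDNA and 664 with CPI-455, against 296 in scrambled and 294 in untreated cells. The groups did not overlap, and the lowest erlotinib library was CPI-455; of neighbours in the order, only the drug-free libraries did not differ beyond counting error. TPM1 rose by 2.13 ± 0.40 on the log2 scale (SE; adjusted p = 0.00600 in edgeR). Its adjusted p was 0.0569 without the scrambled library and 0.0581 without the untreated library.

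TPM4, a tropomyosin of non-muscle cells, was at 1756 CPM with KDM5A shRNA, 1506 in the library labelled KDM5A and KDM5B shRNA, 1147 with KDM5A cDNA and 649 with CPI-455, against 484 in scrambled and 409 in untreated cells. Again all 4 erlotinib libraries lay above both drug-free ones, in the same order, and every pair of neighbours differed beyond counting error. TPM4 rose by 1.55 ± 0.38 on the log2 scale (SE; adjusted p = 0.0182 in edgeR), and the adjusted p was 0.0861 without the scrambled library, 0.134 without the untreated library and 0.0535 without the library labelled KDM5A and KDM5B shRNA. Of the 50-letter words in the last 500 bases of its transcript, 26.4% also occur in AC098614.1, which had at most 9 UMIs in any library.

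TPM2, a tropomyosin of muscle and stress fibres, was near the limit of depth, with 25 UMIs with KDM5A shRNA, 10 in the library labelled KDM5A and KDM5B shRNA, 7 with KDM5A cDNA and 17 with CPI-455, against 5 in scrambled and 24 in untreated cells. These are 15.7, 13.8, 11.9 and 19.5 CPM with erlotinib in that order, against 3.86 in scrambled and 6.07 in untreated cells. The groups did not overlap, but no neighbours in the order of levels differed beyond counting error. TPM2 rose by 1.59 ± 0.43 on the log2 scale (SE; adjusted p = 0.0248 in edgeR). Its adjusted p was 0.116 without the scrambled library, 0.0753 without the untreated library, 0.0543 without the library labelled KDM5A and KDM5B shRNA and 0.0634 without CPI-455.

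MYL9 stood at 324 CPM with KDM5A shRNA, 172 in the library labelled KDM5A and KDM5B shRNA, 54.2 with KDM5A cDNA and 38.9 with CPI-455, against 5.41 in scrambled and 3.54 in untreated cells. In UMIs this was 517, 125, 32 and 34 with erlotinib in the same order, against 7 in scrambled and 14 in untreated cells. The groups did not overlap; KDM5A cDNA and CPI-455 did not differ beyond counting error, nor did the drug-free libraries. MYL9 rose by 5.21 ± 1.15 on the log2 scale (SE; adjusted p = 0.0188 in edgeR). The adjusted p was 0.188 without the scrambled library and 0.241 without the untreated library.

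TAGLN, a smooth muscle and stress fibre transgelin, was at 274 CPM with KDM5A shRNA, 153 in the library labelled KDM5A and KDM5B shRNA, 45.8 with KDM5A cDNA and 8.01 with CPI-455, against 3.86 in scrambled and 4.30 in untreated cells. Counts were 438, 111, 27 and 7 UMIs with erlotinib in that order, against 5 and 17 UMIs in scrambled and untreated cells. The 3 transduced erlotinib libraries lay far above the drug-free ones, whereas CPI-455 and untreated cells did not differ beyond counting error. The log2 fold was 4.93 ± 1.48 (SE), with an edgeR adjusted p of 0.0568. Without CPI-455 it was 5.33 with an edgeR adjusted p of 0.00521. With any other erlotinib library left out, TAGLN was not called (edgeR adjusted p 0.0662 to 0.104). TAGLN2, the transgelin found widely outside smooth muscle, was at 525 CPM with KDM5A shRNA, 468 in the library labelled KDM5A and KDM5B shRNA, 389.8 with KDM5A cDNA and 268 with CPI-455, against 293 in scrambled and 464 in untreated cells. Of neighbours in the order, the library labelled KDM5A and KDM5B shRNA did not differ beyond counting error from KDM5A shRNA above it or from untreated cells below it, nor did scrambled from CPI-455. The groups overlapped, at a log2 fold of 0.18 ± 0.29 (SE; adjusted p = 0.691 in edgeR).

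Of the cross-linkers and the adhesion linker, ACTN1 was at 988 CPM with KDM5A shRNA, 722 in the library labelled KDM5A and KDM5B shRNA, 537 with KDM5A cDNA and 243 with CPI-455, against 311 in scrambled and 336 in untreated cells. The transduced erlotinib libraries lay above both drug-free libraries and CPI-455 below both, while the drug-free libraries did not differ from each other beyond counting error. The log2 fold was 1.00 ± 0.48 (SE; adjusted p = 0.162 in edgeR), and without CPI-455 it was 1.27 with an adjusted p of 0.0144. For ACTN1 no call followed when any other erlotinib library was left out (edgeR adjusted p 0.203 to 0.272). ACTN4, the alpha-actinin of motile epithelial cells, was at 725 CPM with KDM5A shRNA, 730.2 in the library labelled KDM5A and KDM5B shRNA, 503 with KDM5A cDNA and 579 with CPI-455, against 423 in scrambled and 764 in untreated cells. All 4 erlotinib libraries lay between the drug-free ones, and neighbours differed beyond counting error only for KDM5A shRNA over CPI-455 and KDM5A cDNA over scrambled, at a log2 fold of 0.15 ± 0.26 (SE; adjusted p = 0.715 in edgeR). VCL was at 489 CPM with KDM5A shRNA, 442 in the library labelled KDM5A and KDM5B shRNA, 289.8 with KDM5A cDNA and 216 with CPI-455, against 186 in scrambled and 229 in untreated cells. CPI-455 lay between the drug-free libraries and the other 3 above them, and it did not differ from either drug-free library beyond counting error. The VCL log2 fold was 0.84 ± 0.33 (SE; adjusted p = 0.0887 in edgeR), and without CPI-455 it was 1.03 with an adjusted p of 0.0277. VCL was not called when any other erlotinib library was left out (edgeR adjusted p 0.0964 to 0.210).

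By counts alone, 5 of the 9 genes (TAGLN, TPM1, TPM2, TPM4 and MYL9) had all 4 erlotinib libraries above both drug-free libraries, as did 18.6% of the 10445 genes tested. All 4 lay below both for 0 of the 9 and for 26.7% of genes. Counts on near-identical loci were few: ACTN4P1, TPM4P1, TAGLN2P1 and the antisense ACTN1-AS1 each had between 0 and 6 UMIs in a library.

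**Figure D2:**
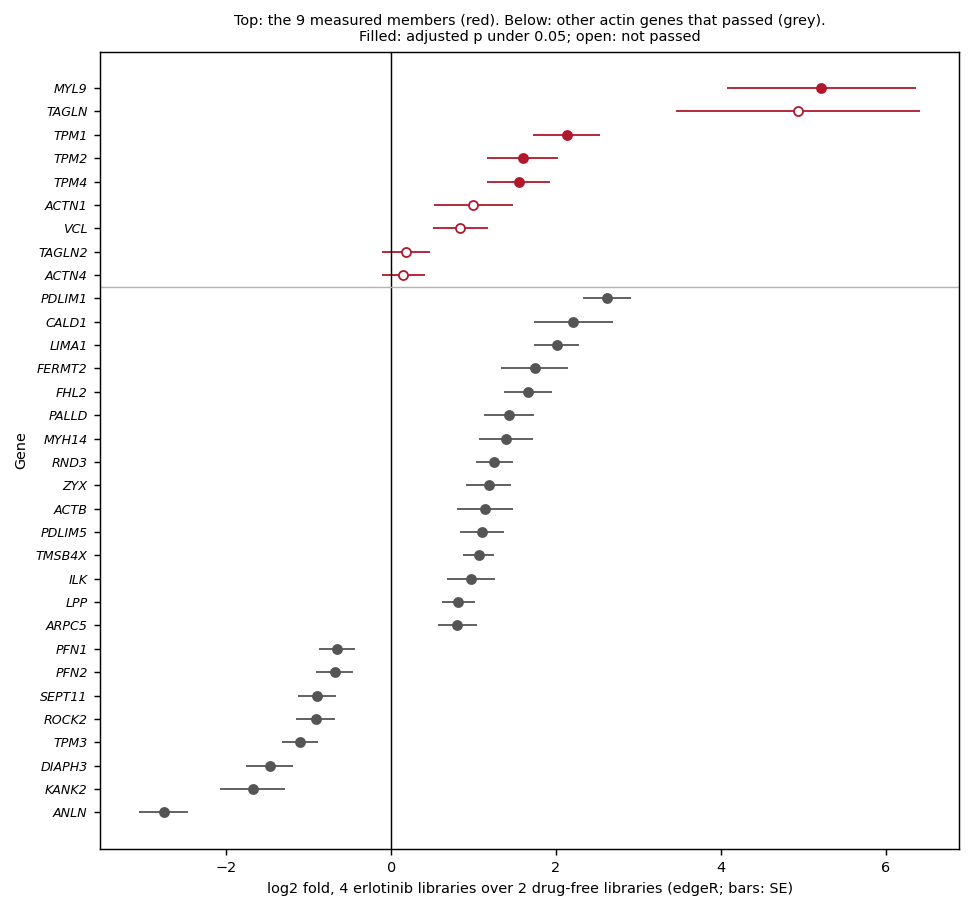
Log2 fold of the 4 erlotinib libraries over the 2 drug-free libraries with SE bars, from edgeR, for the 9 measured genes in red and, below them, the other actin genes that passed, in grey. Filled points have an adjusted p under 0.05. MYL9 at 5.21 and TAGLN at 4.93 carry the widest bars, and ANLN at -2.76 lies at the opposite end.

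Set against its own drug-free control, each erlotinib library was compared library by library, with a ratio and an exact 95% interval and no test, since each side is 1 library; intervals and detection limits cover counting error only. Summed over the 9 genes, levels were 7057 CPM with KDM5A shRNA, 5462 in the library labelled KDM5A and KDM5B shRNA and 4091 for KDM5A cDNA, against 2006 in scrambled cells. The log2 ratios to scrambled were 1.81 (1.75 to 1.88) for KDM5A shRNA, 1.44 (1.37 to 1.52) in the library labelled KDM5A and KDM5B shRNA and 1.03 (0.95 to 1.11) for KDM5A cDNA. All 3 share the scrambled library. The cDNA was carried in pLenti and the shRNAs in pLVTHM, so cDNA and vector cannot be told apart in that pair. At 2-fold or more and at least 10 CPM in either library, 7 of 9 genes were higher with KDM5A shRNA, 7 of 9 in the library labelled KDM5A and KDM5B shRNA and 5 of 9 for KDM5A cDNA. The shares of all genes past that fold were 14.3%, 18.6% and 19.6% in the same order. In each of these pairs 0 of 9 were as much lower, against 18.5%, 19.7% and 17.9% of all genes. The 5 with KDM5A cDNA were TAGLN, TPM1, TPM2, TPM4 and MYL9, and ACTN1 and VCL joined them in the others. TPM2 with KDM5A cDNA rested on 7 against 5 UMIs, at a ratio of 3.07 (0.84 to 12.3), an interval that includes 1. The steepest ratios were those of TAGLN and MYL9: with KDM5A shRNA, TAGLN was 71.0-fold (30.2 to 219.85) and MYL9 59.9-fold (28.9 to 149.7) the scrambled level. For TPM1 the ratio to scrambled was 6.62 (5.95 to 7.38) with KDM5A shRNA, 4.24 (3.76 to 4.79) in the library labelled KDM5A and KDM5B shRNA and 3.76 (3.31 to 4.27) with KDM5A cDNA.

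CPI-455 with erlotinib gave a different split of the set. The summed level was 2685 CPM with CPI-455, against 2509.95 in untreated cells, a log2 ratio of 0.10 (0.03 to 0.16). Of the 8 genes at 10 CPM or more, TPM1, TPM2 and MYL9 were at least 2-fold higher, 3 of 8 against 16.9% of all genes, and 0 of 8 were as much lower, against 16.1%. MYL9 had a log2 ratio of 3.46 (2.52 to 4.47) to the untreated level, and TPM1 was 2.26-fold (2.04 to 2.50) and TPM4 1.58-fold (1.44 to 1.75). TAGLN2 had a log2 ratio of -0.79 (-0.99 to -0.60), ACTN1 of -0.47 (-0.69 to -0.26) and ACTN4 of -0.40 (-0.54 to -0.26). For VCL the interval included 0, at -0.09 (-0.32 to 0.14). These cells differ from the transduced ones in serum and in transduction, so the inhibitor and those conditions cannot be told apart.

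**Figure D3:**
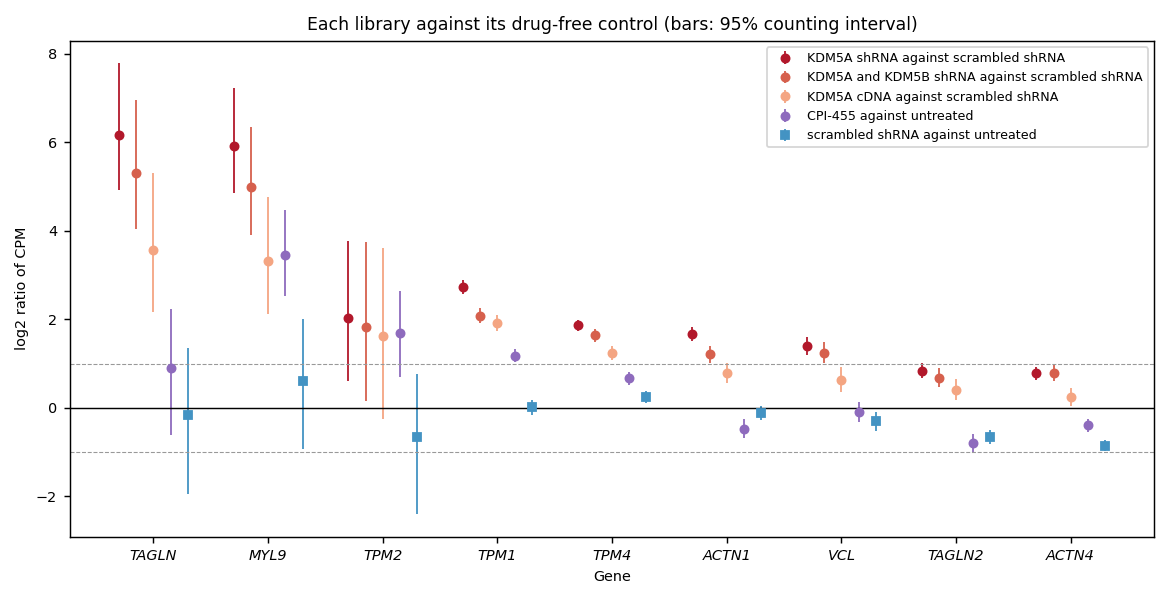
Log2 ratio of CPM for each erlotinib library over its drug-free control, scrambled for the transduced libraries and untreated for CPI-455, with 95% counting intervals. Scrambled over untreated cells is drawn as well. TAGLN reaches 6.15 with KDM5A shRNA. Among the 4 erlotinib pairs, ACTN1, ACTN4 and TAGLN2 fall below 0 only with CPI-455. In scrambled over untreated cells they lie at -0.11, -0.85 and -0.66.

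Among erlotinib libraries, the summed level with KDM5A shRNA was 1.73-fold (1.65 to 1.80) that with KDM5A cDNA. TAGLN, at 6.00-fold (4.06 to 9.20), and MYL9, at 5.97-fold (4.18 to 8.82), were the members past 2-fold, 2 of 9 against 8.18% of all genes. KDM5A shRNA and KDM5A cDNA cells also differ in vector and in days from transduction to erlotinib. These cannot be told apart from the KDM5A manipulation. The sum in the library labelled KDM5A and KDM5B shRNA was 0.774-fold (0.746 to 0.803) that with KDM5A shRNA. Past 2-fold in that pair lay 0 of 9 genes in either direction, against 8.72% of all genes higher and 4.07% lower, although TAGLN had a ratio of 0.557 (0.448 to 0.688) and MYL9 of 0.532 (0.434 to 0.648). With CPI-455, 6 of 9 genes were at least 2-fold lower than with KDM5A shRNA, against 6.05% of all genes: TAGLN, TPM1, TPM4, MYL9, ACTN1 and VCL. Between the drug-free libraries, 0 of the 6 genes at 10 CPM or more differed by 2-fold, against 4.99% of all genes higher and 7.87% lower. The scrambled cells nonetheless had lower ACTN4 and TAGLN2 than untreated cells, with log2 ratios of -0.85 (-0.98 to -0.72) and -0.66 (-0.83 to -0.50).

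Other genes of the actin system were called in both directions. Of 91 other actin genes listed, 87 had a row and 77 were tested. In edgeR 15 of the 77, 19.5%, were higher with erlotinib and 8, 10.4%, lower, against 10.0% and 13.5% of all genes tested, so the share called lower was not above that of all genes. The median log2 fold of the 77 was 0.13. The called genes with the largest rises were PDLIM1, a stress fibre adaptor, at 2.62 ± 0.29, CALD1 (caldesmon), which restrains myosin on the filament, at 2.21 ± 0.48, LIMA1, a filament bundler, at 2.01 ± 0.27, and FERMT2 (kindlin), an integrin activator, at 1.74 ± 0.41 on the log2 scale (SE). Their edgeR adjusted p-values were 0.000316 for PDLIM1, 0.0126 for CALD1, 0.000827 for LIMA1 and 0.0134 for FERMT2. Those with the largest falls were ANLN (anillin), which organises the cytokinetic ring, at -2.76 ± 0.30, KANK2, an adhesion protein, at -1.68 ± 0.40, DIAPH3, a formin of dividing cells, at -1.47 ± 0.28, and TPM3, another tropomyosin gene, at -1.11 ± 0.21. Their edgeR adjusted p-values were 0.000272 for ANLN, 0.0136 for KANK2, 0.00480 for DIAPH3 and 0.00517 for TPM3.

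TPM3 ran opposite to the other tropomyosins. It was at 553 CPM with KDM5A shRNA, 466 in the library labelled KDM5A and KDM5B shRNA, 703 with KDM5A cDNA and 522 with CPI-455, against 1319.5 in scrambled and 1159 in untreated cells, so the groups did not overlap. Beta-actin (ACTB) rose by 1.14 ± 0.34 on the log2 scale (SE; adjusted p = 0.0362 in edgeR). ACTA2, the smooth muscle alpha-actin, stayed between 1.88 and 5.08 CPM with erlotinib, against 2.32 in scrambled and 4.30 in untreated cells, and was too low to be tested. SRF had a log2 fold of 0.31 ± 0.38 (SE; adjusted p = 0.575 in edgeR) and MKL1, its coactivator, of 0.03 ± 0.35 (SE; adjusted p = 0.963 in edgeR), as transcripts. ACTG1, ACTC1, TAGLN3 and ACTN2 were not analysed here.

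Across the 6 libraries, log2 levels of TAGLN followed those of VCL with Pearson r = 0.98, TPM4 with 0.97, ACTN1 with 0.96 and MYL9 with 0.96, but ACTN4 with only 0.46 and TPM2 with 0.54. TPM1 followed TPM4 at r = 0.98 and MYL9 at 0.97. The points share libraries and depth, and the order of conditions, so these values are a description. Among genes at 50 CPM or more in some library, those most like TAGLN were MYL12A, another myosin light chain (r = 0.999), FRMD6 (0.998) and EDN1, which encodes endothelin (0.994); 63 genes passed 0.95 for TAGLN. EDN1 was at 387 CPM with KDM5A shRNA, 258 in the library labelled KDM5A and KDM5B shRNA, 112 with KDM5A cDNA and 36.6 with CPI-455, against 17.0 in scrambled and 21.5 in untreated cells. The genes most like MYL9 were CCDC53 (0.994), PHLDB2 (0.991) and FN1 (fibronectin; 0.990), and those most like TPM1 were PALLD (palladin; 0.997), AC016683.6 (0.995) and TAX1BP1 (0.994). TPM4 was closest to KYNU (0.994), LAYN (0.993) and CD47 (0.991), TPM2 to SECISBP2L (0.999), EPS8 (0.993) and SWAP70 (0.992). ACTN1 was closest to CREB3 (0.992), ITGAV (an integrin subunit; 0.988) and COMMD7 (0.984), and VCL to SPINT2 (0.991), TLN1 (talin; 0.986) and MYL12A (0.986). TAGLN2 was closest to CMTM3 (0.994), SMAD3 (0.988) and ARFGAP3 (0.974), and ACTN4 to VIMP (0.989), TMBIM1 (0.959) and UQCRB (0.955). Past 0.95 lay 102 genes for TPM2, 101 for MYL9, 91 for TPM1 and 71 for TPM4. The number was 63 for VCL, 36 for ACTN1 and 4 each for TAGLN2 and ACTN4. All named genes were picked as the highest over only 6 libraries, and TPM2 rests on 5 to 25 UMIs in a library.

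To compare single cells at 1 depth, each cell with at least 1000 UMIs was thinned to 1000 UMIs, which left 332 cells with KDM5A shRNA, 124 in the library labelled KDM5A and KDM5B shRNA, 105 with KDM5A cDNA, 164 with CPI-455, 222 scrambled and 822 untreated cells. TPM1 was then seen in 70.5% of cells with KDM5A shRNA, 56.5% in the library labelled KDM5A and KDM5B shRNA, 55.2% with KDM5A cDNA and 40.2% with CPI-455, against 26.6% of scrambled and 24.6% of untreated cells. TPM4 was seen in 76.5%, 68.5%, 62.9% and 44.5% of cells of the erlotinib libraries in that order, against 38.3% of scrambled and 28.3% of untreated cells. The order of the shares is that of the summed levels for both genes, which at 1 fixed depth follows largely from the levels themselves.

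TAGLN had a UMI in 55 of 332 thinned cells with KDM5A shRNA (16.6%, exact 95% interval 12.7 to 21.0), 9 of 124 in the library labelled KDM5A and KDM5B shRNA (7.26%), 3 of 105 for KDM5A cDNA (2.86%) and 2 of 164 with CPI-455 (1.22%), against 1 of 222 scrambled (0.450%) and 3 of 822 untreated cells (0.365%). MYL9 had one in 21.7%, 12.1%, 6.67% and 3.66% of cells in the same order, against 0.450% of scrambled and 0.365% of untreated cells. Without thinning, TAGLN was seen in 33.2% of cells with KDM5A shRNA, 24.3% in the library labelled KDM5A and KDM5B shRNA, 12.2% with KDM5A cDNA and 2.97% with CPI-455, against 1.90% of scrambled and 0.943% of untreated cells. Unthinned MYL9 was seen in 43.9%, 28.3%, 16.0% and 10.9% of cells of the erlotinib libraries in that order, against 2.66% of scrambled and 1.20% of untreated cells. PC9 is a single line with no cell type that should lack these transcripts, so the share from free RNA in droplets was not measured; median depth before thinning was 2985.5 to 3762.5 UMIs with erlotinib, against 3343 in scrambled and 1493.5 in untreated cells.

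**Figure D4:**
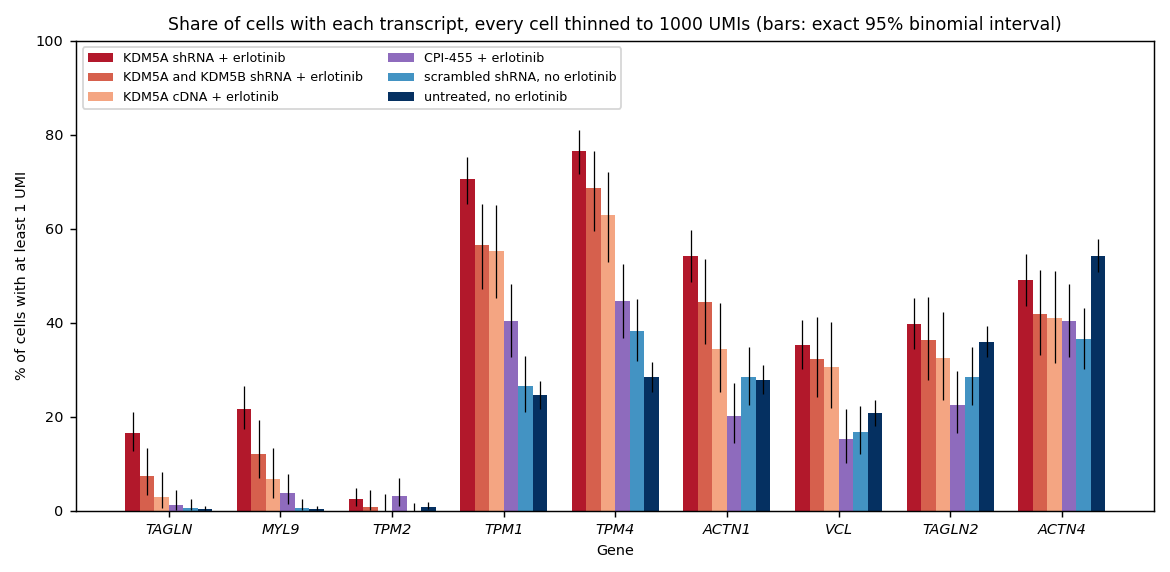
Share of cells with at least 1 UMI of each gene, in percent, after every cell was thinned to 1000 UMIs, with exact 95% binomial intervals, erlotinib libraries left of the drug-free ones. TPM1 and TPM4 are seen in 70.5% and 76.5% of cells with KDM5A shRNA, and TAGLN in 16.6%.

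Spread beyond counting noise was taken as variance minus mean, over the mean squared. It was 2.44 for TAGLN with KDM5A shRNA, against a median of 0.20 over 3537 genes of that library with a mean of at least 0.05 UMIs per cell. The 10% of cells with most TAGLN held 73.8% of its UMIs, and 5.15% of those genes were more variable. Low counts alone raise this share: it was 100% for TPM2, which had a UMI in 8 of 332 cells and a spread of -0.88. For MYL9, at a mean of 0.27 UMIs per cell against 0.24 for TAGLN, it was 57.3%. The spread of TAGLN was 2.60 at 500 UMIs per cell and 1.56 at 2000. In the same cells it was 0.69 for MYL9, 0.56 for TPM1, 0.54 for VCL, 0.40 for ACTN1, 0.27 for TPM4, 0.26 for ACTN4 and -0.03 for TAGLN2. The order of these was not determined: MYL9 was at 1.51 with 2000 UMIs per cell and at 0.0087 without barcodes that end in N, VCL at -0.27 with 500 UMIs and ACTN4 at -0.23 with 500. In the library labelled KDM5A and KDM5B shRNA TAGLN was at 12.4 from 9 positive cells, and at -0.86 when thinned to 500 UMIs, so its spread there was not determined at this depth. TAGLN and MYL9 fell in the same cells more often than the product of their shares: 25 cells with KDM5A shRNA had both, where that product gives 11.9, and 4 cells in the library labelled KDM5A and KDM5B shRNA, where it gives 1.09.

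Within the KDM5A shRNA library, each of TPM1 (Pearson r = 0.49), TPM4 (0.40), ACTN1 (0.39), TAGLN (0.33), MYL9 (0.30) and VCL (0.26) correlated across 332 thinned cells with the sum of the other members, whereas ACTN4 (0.08) and TAGLN2 (-0.03) did so weakly or not. In the library labelled KDM5A and KDM5B shRNA, r was 0.38 for TPM1, 0.26 for TPM4 and 0.20 for ACTN4 over 124 cells. With KDM5A cDNA, r was 0.34 for TPM1, 0.37 for TPM4 and 0.25 for ACTN4 over 105 cells. With CPI-455 over 164 cells it was 0.18 for TPM1, 0.11 for TPM4, 0.21 for ACTN1 and 0.08 for ACTN4. In 222 scrambled cells it was 0.20 for ACTN1, 0.13 for VCL, 0.13 for ACTN4, 0.12 for TPM4, 0.02 for TPM1 and -0.11 for TAGLN2. In 822 untreated cells all measured values lay between -0.03 and 0.06, where counts per cell are also lower than with KDM5A shRNA for TPM1, TPM4, ACTN1 and VCL. In the KDM5A shRNA library the same genes had r between -0.05 and 0.02 with the sum of 8 mitosis genes, and TPM1 had 0.12 with the cell's UMI total before thinning. Cells of a library share its depth and free RNA, so these are descriptions.

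**Figure D5:**
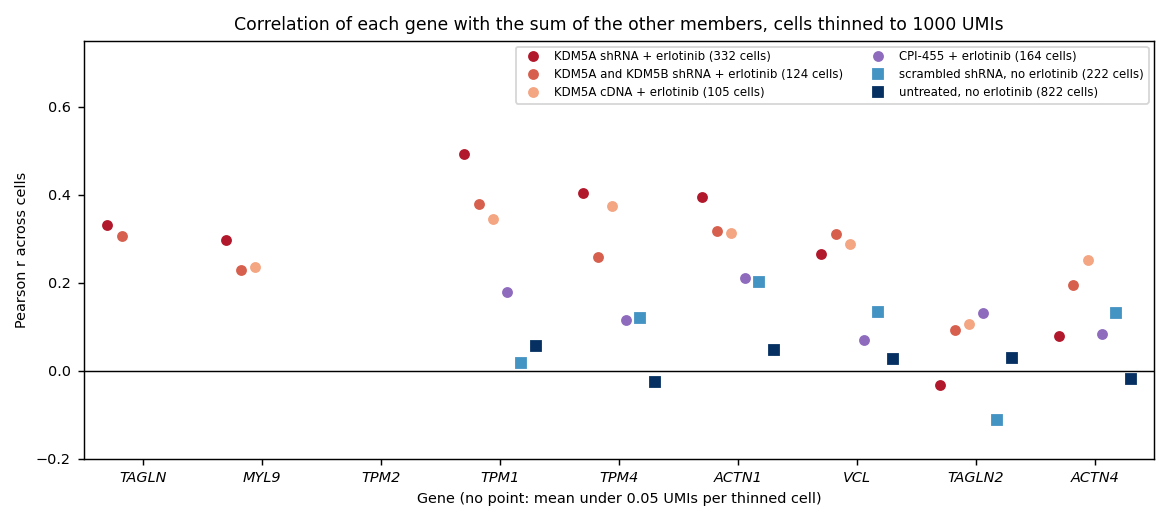
Pearson r across thinned cells between each gene and the sum of the other measured members, by library, erlotinib libraries left of the drug-free ones; genes under 0.05 UMIs per cell have no point. TPM1 reaches 0.49 with KDM5A shRNA and 0.06 in untreated cells.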

How the data were processed

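Drop-seq libraries of PC9 cells, 1 for each of 6 conditions, were analysed from the deposited counts, which are whole UMIs by gene symbol and barcode and, as their values showed, not normalized. STAR, FastQC and the build GRCh37.p13 (hg19) are named per the submitters' processing notes; versions, settings and the counting tool are not given in the sources used here. Promoters are RefSeq's on GRCh38.p14, matched by symbol.

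UMIs were summed over cells, meaning barcodes of 500 UMIs or more with a mitochondrial share up to 20% (Python 3.11.15). Over the mitochondrial limit lay 17.8% of such barcodes in the library labelled KDM5A and KDM5B shRNA, 9.03% with KDM5A cDNA and 0.766% to 2.42% elsewhere. Kept barcodes that end in N were 118 of 374 with KDM5A shRNA and 43 of 152 in the library labelled KDM5A and KDM5B shRNA. They were 34 of 131 with KDM5A cDNA, 59 of 202 with CPI-455, 60 of 263 scrambled and 41 of 1166 untreated. No doublet caller was used. A count of 3, the detection floor, is 0.758 to 5.08 CPM. Kept barcodes were compared between libraries, and 1 was shared, by CPI-455 and the library labelled KDM5A and KDM5B shRNA. The 6 sums entered edgeR 4.0.16 in R 4.3.3 (TMM, filterByExpr, robust quasi-likelihood fit, Benjamini-Hochberg over all genes), checked on simulated counts; p-values measure the spread between these libraries. Alternatives used DESeq2 1.42.0, limma-voom 3.58.1, other scalings, filters and depths, and leaving out each library. For 8 pairs of libraries, ratios carry exact 95% Poisson intervals and no test. Cells were thinned to 1000 UMIs for shares and spread.

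The members and lists were chosen with earlier results of these data known. All 10 members are named; of the other actin genes, up to 4 called genes with the largest rise and fall, the actins, SRF and MKL1; and for each member the 3 genes with the highest correlation of log2(CPM + 10).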

Additional observations from a re-analysis of the deposited data

Results flagged for a closer look

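In 3 genes CPI-455 with erlotinib lay below its control, with a counting interval that excluded 0, while all 3 transduced erlotinib libraries lay above theirs, and this difference was not tested, since each condition has 1 library. TAGLN2 had a log2 ratio of -0.79 for CPI-455 against untreated cells, but 0.84 for KDM5A shRNA, 0.68 in the library labelled KDM5A and KDM5B shRNA and 0.41 for KDM5A cDNA against scrambled cells. ACTN1 had -0.47 for CPI-455, but 1.67, 1.21 and 0.79 in the transduced libraries in the same order. ACTN4 had -0.40 for CPI-455, but 0.78, 0.79 and 0.25 in the transduced libraries. VCL had the same signs, at -0.09 for CPI-455, but its interval included 0. The drug-free libraries themselves differ in TAGLN2 and ACTN4, at -0.66 and -0.85 for scrambled against untreated cells. ACTN4 in every erlotinib library lay between scrambled (423 CPM) and untreated cells (764 CPM), so its sign follows the control used. TAGLN2 with CPI-455 (268 CPM) did not differ from scrambled cells (293 CPM) beyond counting error. With KDM5A cDNA (390 CPM) TAGLN2 lay below untreated cells (464 CPM). The part of the controls in the pattern was not otherwise tested.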

How the results depend on the processing

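No paired analysis was possible because each condition has 1 library and the labels give no replicate numbers. Leaving out 1 library at a time gave 0 to 6 of the 9 genes higher, 500 to 1176 of all genes higher and 860 to 1341 of all genes lower, 8 to 20 other actin genes higher and 4 to 9 lower. Without the scrambled library the log2 folds of TAGLN2 and ACTN4 turned to -0.10 and -0.21, both without a call before or after; without the untreated library they were 0.49 and 0.57. Of the 9 genes, 2 were higher without barcodes that end in N and 2, TPM1 and TPM4, in transduced libraries only. Over all genes, thinning gave 484 higher and 522 lower, with fewer genes tested (4431), transduced libraries only gave 479 and 856, and a term for the share of pseudogene symbols 490 and 611, against 1046 and 1412 as reported. Other actin genes lower numbered 4 with thinning, 2 in transduced libraries only and 4 with the pseudogene term, in place of 8. The log2 ratio of the summed genes for scrambled against untreated cells was -0.24 with TMM scaling and -0.22 with thinning, in place of -0.32. With thinning the ratios to scrambled were 1.64 for KDM5A shRNA and 1.19 in the library labelled KDM5A and KDM5B shRNA, that of KDM5A shRNA to KDM5A cDNA was 0.69, and that of the library labelled KDM5A and KDM5B shRNA to KDM5A shRNA was -0.45. The cause was not tested in these cases, beside the fewer libraries or genes that the alternatives themselves bring. With every gene kept, the median of all genes moved by -0.13, and MYL9 had an edgeR adjusted p of 0.177; DESeq2 gave TAGLN an adjusted p of 0.00255 and limma-voom gave MYL9 0.0647. Over all alternatives, 124 log2 folds of the 9 genes kept direction and call, 19 lost a call, 7 gained one and 2 turned. Depth limits TPM2, with 5 to 25 UMIs in a library, the drug-free levels of TAGLN, with 5 and 17 UMIs, and of MYL9, with 7 and 14, and the spread of single genes over cells, where 71 of 123 alternative values moved.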

Other observations

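Calponin (CNN1) and leiomodin (LMOD1), smooth muscle genes that SRF is known to drive, were counted almost only with KDM5A shRNA. CNN1 had 15 UMIs with KDM5A shRNA, 0 in the library labelled KDM5A and KDM5B shRNA, 1 with KDM5A cDNA and 0 with CPI-455, against 0 in scrambled and 0 in untreated cells. LMOD1 had 7, 0, 0 and 1 UMIs in the erlotinib libraries in that order, against 0 in scrambled and 0 in untreated cells. The KDM5A shRNA library held 1596385 UMIs, against 590091 to 873760 in the other erlotinib libraries. In CPM, CNN1 was at 9.40 with KDM5A shRNA and 1.69 with KDM5A cDNA. LMOD1 was at 4.38 CPM with KDM5A shRNA and 1.14 with CPI-455. No interval was computed for these few counts. The other smooth muscle markers with a row did not follow the pattern of CNN1 and LMOD1. Smoothelin (SMTN) was at 10.0 CPM with KDM5A shRNA, against 10.0 in scrambled and 32.6 in untreated cells. ACTA2 was at 1.88 CPM with KDM5A shRNA, against 2.32 in scrambled and 4.30 in untreated cells. MYH11 had 1 UMI with KDM5A shRNA, against 3 in scrambled and 0 in untreated cells. Nexilin (NEXN), an actin-binding protein of focal contacts, was at 99.6 CPM with KDM5A shRNA, 73.0 in the library labelled KDM5A and KDM5B shRNA, 40.7 with KDM5A cDNA and 10.3 with CPI-455, against 2.32 in scrambled and 24.0 in untreated cells, at a log2 fold of 1.99 ± 0.92 (SE; adjusted p = 0.159 in edgeR). CNN1, LMOD1 and NEXN were chosen after their values were seen.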
